A study of Mus musculus with 42 samples.

Results

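The 10 genes studied here belong to retinoic acid signalling and were compared between *Chd8*-mutant and control mouse spermatogonia. They are the retinol importer *Stra6*, the synthesis enzymes *Rdh10*, *Aldh1a1* and *Aldh1a2*, the degrading enzyme *Cyp26b1*, the receptors *Rara*, *Rarb*, *Rarg* and *Rxra*, and the target gene *Stra8*. The genes were listed by name, with no cutoff on their values, though with earlier results of these data known, and were 10 of 27179 genes in the RNA-seq count table, where Entrez gene IDs were mapped to symbols. All 10 were found, all 10 passed the filter on low counts in every comparison, and no exon of theirs overlapped an exon of another gene. The libraries came from testes of male C57BL/6J pups at 10 dpp (days postpartum). Controls were Ddx4-Cre/Chd8+/F and mutants Ddx4-Cre/Chd8F/-, so both genotypes carried the Cre transgene and a floxed *Chd8* allele, and the mutants also carried a null allele in every cell. Because the *Ddx4* promoter drives Cre in germ cells, the floxed allele is kept in somatic cells of both genotypes. Where Cre removes the floxed allele in germ cells, controls keep only the wild-type allele and mutants keep no intact allele. Cells of each genotype were sorted with magnetic beads, first for c-Kit, which marks differentiating spermatogonia, and then from the unbound cells for Thy1, which enriches undifferentiated spermatogonia. Each of the 4 groups (Thy1+ control, Thy1+ mutant, c-Kit+ control, c-Kit+ mutant) had 3 libraries. The study's methods give 3 pups for each analysis without saying whether a library is 1 pup, so the spread between libraries may be partly technical.

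Retinoic acid is made from retinol, which STRA6 carries into cells, by a first oxidation to retinal by RDH10 and a second to retinoic acid by the ALDH1A enzymes. CYP26 enzymes destroy it, and it acts by binding RAR receptors that sit on DNA as pairs with RXR receptors. In the testis the signal drives undifferentiated spermatogonia into differentiation and later into meiosis. *Stra8* is switched on at both steps, whereas somatic cells of the testis are known to express several of the synthesis and breakdown enzymes.

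Total counts ran from 32266861 to 45396233 per library. The sorted fractions were checked against their markers: *Thy1* itself averaged 12.6 ± 1.40 CPM (counts scaled to the library size; SD, n = 3) in Thy1+ controls and 0.685 ± 0.248 CPM in c-Kit+ controls, and *Kit* averaged 288 ± 111 and 666 ± 45.6 CPM. The *Chd8* count does not check the genotype labels, since it covers the whole gene and not the floxed exons alone: it averaged 281 ± 22.0 CPM in c-Kit+ controls and 306 ± 9.49 CPM in c-Kit+ mutants. Before the sort, the cells had been strained to take out Sertoli cells and plated so that other somatic cells would adhere. RNA of somatic cell markers was nevertheless measured in every library. In Thy1+ controls 8 stromal cell markers summed to 11190 to 14570 CPM. In the same libraries 10 germ cell markers summed to 1496 to 2286 CPM, and 14 markers of undifferentiated spermatogonia to 800 to 1131 CPM. Such sums over unlike genes do not give shares of cells. The summed level of 11 Sertoli cell markers was 1016 CPM in replicate 1 of the Thy1+ controls against 231 and 255 CPM in the other two, and 1345 CPM in replicate 1 of the Thy1+ mutants against 452 and 487 CPM, so both of these libraries stood apart.

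The promoters of *Stra8* and *Rarb* are shown because one is the target gene that moved in the sorted cells and the other is a receptor gene known as a target of the receptors themselves. Each sequence is the 250 bases before the RefSeq gene start (build GRCm38.p6, the same assembly as mm10), read 5′ to 3′ on the gene's strand. These starts differ from those of the counted exons, which begin at 34920960 for *Stra8* and, on the minus strand, at 16575210 for *Rarb*. Distances before the start refer to the RefSeq starts.
Stra8 (chr6:34920698-34920947, plus strand): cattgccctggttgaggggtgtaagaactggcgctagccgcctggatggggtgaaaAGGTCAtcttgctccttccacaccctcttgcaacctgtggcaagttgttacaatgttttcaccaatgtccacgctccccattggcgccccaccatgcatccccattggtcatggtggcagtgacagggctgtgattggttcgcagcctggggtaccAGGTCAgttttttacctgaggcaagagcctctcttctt
Rarb (chr14:16575477-16575726, minus strand): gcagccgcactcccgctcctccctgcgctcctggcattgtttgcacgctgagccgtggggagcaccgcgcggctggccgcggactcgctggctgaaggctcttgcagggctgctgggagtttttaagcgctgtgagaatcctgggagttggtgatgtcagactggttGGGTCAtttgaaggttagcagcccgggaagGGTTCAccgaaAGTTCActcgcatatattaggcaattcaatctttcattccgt
Capitals mark the receptor half-sites searched on both strands, which were AGGTCA and its variants with G in place of the first letter (GGGTCA), with T in place of the third letter (AGTTCA) and with both of these changes (GGTTCA). The *Rarb* window held a DR5, that is, 2 half-sites in the same direction with 5 bases between them, at 53 to 37 bases before the start. A DR5 was in 0.0884% of 32807 RefSeq windows of this length. The *Stra8* window held AGGTCA at 194 to 189 and at 38 to 33 bases before the start, as single half-sites, and AGGTCA was in 14% of all windows. Windows were listed for 9 members (18 windows, *Rdh10* not among them), and the *Rarb* window was the 1 that held a DR5 or a direct repeat with a spacing of 2 or 1. The half-sites of a repeat were counted among the single half-sites too.

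Compared per kilobase of exon, 3 of the genes stood well above the rest (the plot of levels per length). In c-Kit+ controls *Stra8* stood at 383 ± 38.7 CPM per kb and *Aldh1a1* at 380 ± 28.4 CPM per kb, which did not differ beyond their spread. *Cyp26b1* followed at 56.5 ± 4.26 CPM per kb. In Thy1+ controls the 3 lay closer together, at 207 ± 33.3 for *Aldh1a1*, 169 ± 70.6 for *Stra8* and 166 ± 36.6 CPM per kb for *Cyp26b1*, and their spreads overlapped. Below them in c-Kit+ controls came *Aldh1a2* (29.2 ± 2.32 CPM per kb) and *Rxra* (24.1 ± 2.13), then *Rarg* (15.9 ± 1.82), *Rara* (11.8 ± 1.72) and *Rdh10* (9.97 ± 1.16). *Stra6* (2.05 ± 0.759 CPM per kb) and *Rarb* (1.66 ± 0.347) were lowest and within each other's spread. Among the receptors, *Rara* and *Rarg* were therefore the abundant RAR transcripts and *Rarb* was scarce, with 70 to 195 counts in any library.

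**Figure D1:**
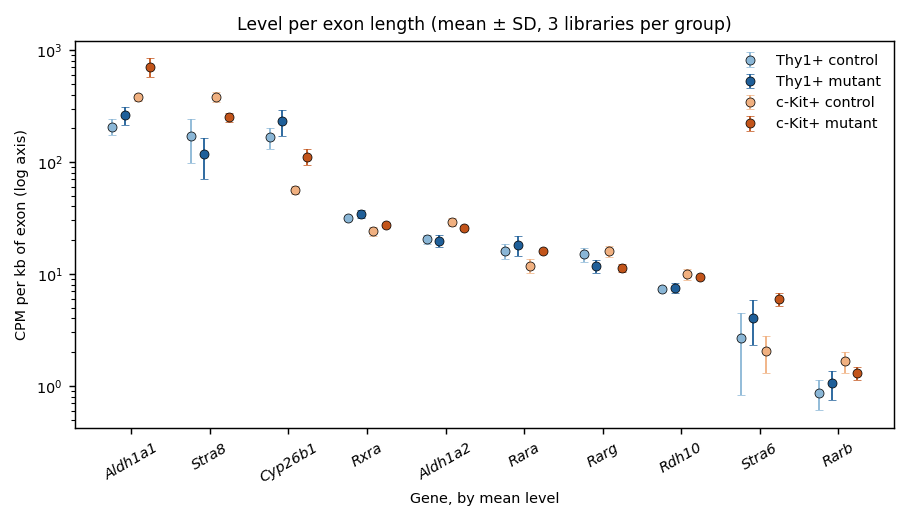
Mean level per kilobase of exon (CPM per kb, log axis) of the 10 genes in the 4 groups, with bars of 1 SD over 3 libraries. *Aldh1a1*, *Stra8* and *Cyp26b1* lie above the other 7 genes in every group, from 56.5 CPM per kb for *Cyp26b1* in c-Kit+ controls to 710 CPM per kb for *Aldh1a1* in c-Kit+ mutants.

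The first comparison was of mutant with control c-Kit+ cells. *Stra6*, *Aldh1a1* and *Cyp26b1* rose and *Stra8* and *Rarg* fell in the mutants, so 5 of the 10 genes passed the threshold of an adjusted p under 0.05 with a log2 fold change over 0.5 in size. Over all 17134 genes tested, 14.8% were called higher and 7.41% lower. The 3 libraries of one genotype did not overlap with those of the other for 7 of the 10 genes, against 52.2% of all genes. Bulk libraries cannot tell fewer cells of a type from less RNA per cell, and this holds for each result below.

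**Figure D2:**
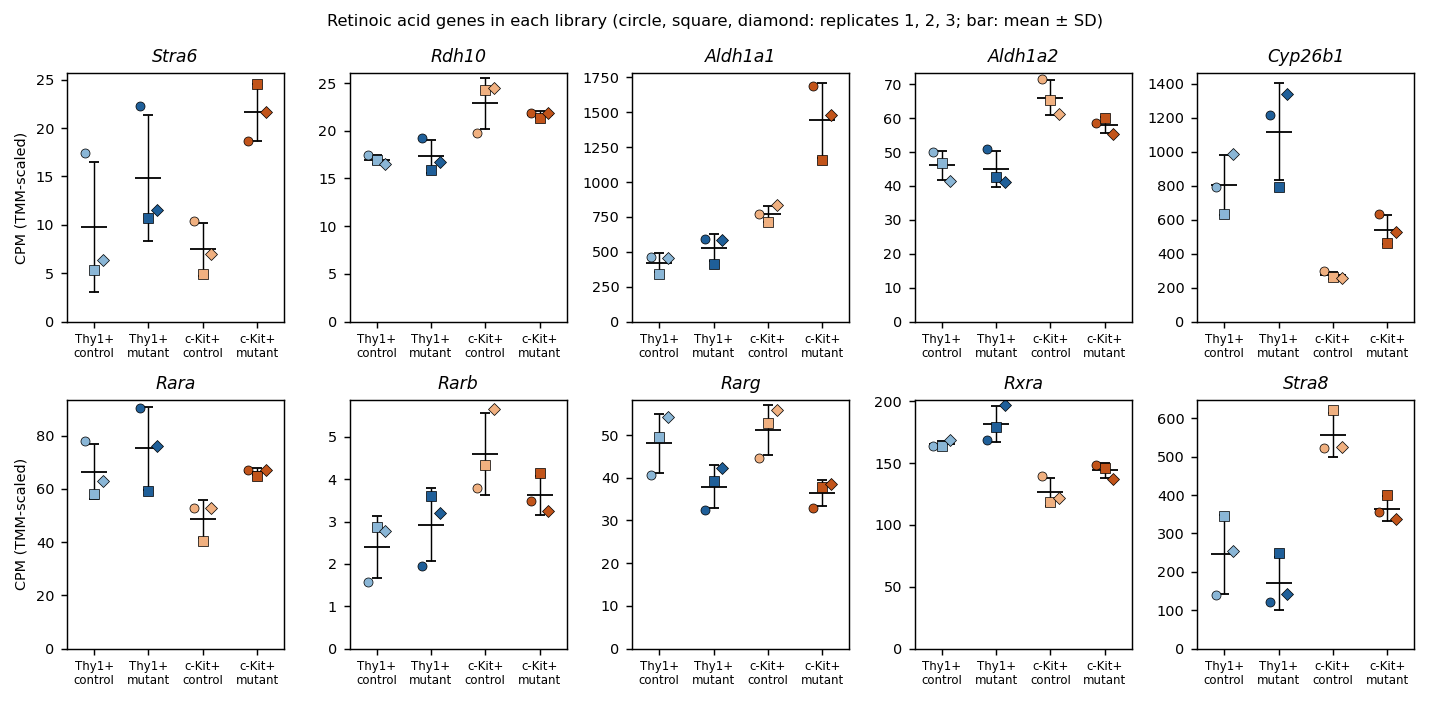
CPM of each gene in each library (vertical axis, from 0), by group, with the mean and SD of 3 libraries; circles, squares and diamonds are replicates 1, 2 and 3. In c-Kit+ cells the mutant libraries lie above the controls for *Stra6*, *Aldh1a1*, *Cyp26b1* and *Rara* and below them for *Stra8*, *Rarg* and *Aldh1a2*.

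*Stra6* (gene ID 20897; mm10 chromosome 9, 58129088 to 58153997, 22 exons) stood at 10.4, 4.95 and 7.03 CPM in the c-Kit+ controls and at 18.6, 24.5 and 21.7 CPM in the c-Kit+ mutants. Every mutant library was above every control library. The log2 fold change was 1.48 (SE 0.23, adjusted p = 0.000885), the steepest of the 10. In the Thy1+ cells it was at 17.5, 5.37 and 6.36 CPM in controls and 22.3, 10.7 and 11.5 CPM in mutants, and these groups overlapped. The 2 high Thy1+ values were the replicate 1 libraries with the high Sertoli cell markers. As a percent of the summed Sertoli cell markers of its own library, *Stra6* was at 1.53, 1.85 and 1.46% in c-Kit+ controls and at 1.70, 2.14 and 1.79% in c-Kit+ mutants. On this scale the groups overlapped, but in every same-numbered pair of c-Kit+ libraries the mutant value was the higher.

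Of the synthesis enzymes, *Rdh10* and *Aldh1a2* moved little and *Aldh1a1* rose. *Aldh1a1* (gene ID 11668; chromosome 19, 20601982 to 20643462, 13 exons) stood at 769, 717 and 832 CPM in c-Kit+ controls and at 1690, 1158 and 1483 CPM in c-Kit+ mutants. No library of one group reached the other, and the log2 fold change was 0.84 (SE 0.12, adjusted p = 0.000556). As a percent of the summed level of 7 Leydig cell markers in its own library, *Aldh1a1* was at 106.3, 111.5 and 66.56% in controls and at 102.3, 98.39 and 72.93% in mutants. On this scale the groups overlapped and the same-numbered pairs did not all go one way. *Aldh1a2* (gene ID 19378; chromosome 9, 71215789 to 71296243, 14 exons), the ALDH1A enzyme with no rise here, was at 71.6, 65.2 and 61.2 CPM in controls and 58.6, 60.0 and 55.3 CPM in mutants. Its log2 fold change of -0.25 (SE 0.08, adjusted p = 0.031) did not reach the minimum size, although the groups did not overlap. *Rdh10* (gene ID 98711; chromosome 1, 16105882 to 16132550, 6 exons), which makes retinal, ran from 19.8 to 24.5 CPM in controls and from 21.3 to 21.9 CPM in mutants. The groups overlapped, with a log2 fold change of -0.13 (95% interval -0.37 to 0.11, adjusted p = 0.353).

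*Cyp26b1* (gene ID 232174; chromosome 6, 84571414 to 84593908, minus strand, 7 exons) encodes the enzyme that clears retinoic acid in the testis. It stood at 297, 265 and 259 CPM in c-Kit+ controls and at 635, 462 and 530 CPM in c-Kit+ mutants, again without overlap. The log2 fold change was 0.93 (SE 0.11, adjusted p = 0.000268). The summed level of 8 stromal cell markers also rose, from 1819 to 2282 CPM in c-Kit+ controls to 3300 to 4386 CPM in c-Kit+ mutants. *Cyp26b1* was at 13.0, 12.4 and 14.3% of that sum in the controls and 14.49, 13.99 and 15.63% in the mutants. These values overlapped between the groups, but in every same-numbered pair the mutant value was the higher.

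The receptors did not move together. *Rarg* (gene ID 19411; chromosome 15, 102234940 to 102257483, minus strand, 11 exons), the RAR known to act in spermatogonial differentiation, stood at 44.6, 52.8 and 55.9 CPM in c-Kit+ controls and at 33.0, 37.9 and 38.4 CPM in c-Kit+ mutants. The groups did not overlap, and *Rarg* fell by 0.55 on the log2 scale (SE 0.10, adjusted p = 0.00246). Its size lay close to the minimum of 0.5: without control replicate 3 it was -0.47 and without mutant replicate 1 it was -0.48, both under the minimum. *Rara* (gene ID 19401; chromosome 11, 98937696 to 98974942, 12 exons), the RAR known mainly from Sertoli cells, was at 52.9, 40.6 and 52.9 CPM in controls and 67.1, 65.0 and 67.2 CPM in mutants. Its groups did not overlap either, but its log2 fold change of 0.39 (SE 0.10, adjusted p = 0.0129) was under the minimum size. *Rarg* and *Rara* thus lay on opposite sides of zero. *Rarb* (gene ID 218772; chromosome 14, 16430839 to 16575210, minus strand, 8 exons), with the DR5 shown above, ran from 3.79 to 5.66 CPM in controls and from 3.24 to 4.14 CPM in mutants. Those groups overlapped and the log2 fold change was -0.40 (95% interval -0.86 to 0.06, adjusted p = 0.152). *Rxra* (gene ID 20181; chromosome 2, 27677201 to 27763319, 10 exons), the shared partner receptor, had a log2 fold change of 0.13 (95% interval -0.04 to 0.29, adjusted p = 0.204).

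*Stra8* (gene ID 20899; chromosome 6, 34920960 to 34939342, 9 exons) encodes the factor through which retinoic acid triggers meiotic entry, and its promoter is shown above. It stood at 522, 622 and 526 CPM in c-Kit+ controls and at 355, 402 and 339 CPM in c-Kit+ mutants. Each mutant library was below each control library, and *Stra8* fell by 0.67 on the log2 scale (SE 0.09, adjusted p = 0.00041). When all 12 libraries shared one estimate of the spread, the log2 fold change was -0.61 and the adjusted p was 0.144, so the call was lost there. The summed level of 10 germ cell markers was lower in the mutants too, at 2127, 2214 and 1929 CPM against 2617, 3091 and 2629 CPM in controls. As a percent of that sum, *Stra8* was at 19.95 to 20.11% in the 3 controls and at 16.7, 18.1 and 17.6% in mutants, and these groups did not overlap. The genes of the sum did not move evenly. *Sycp3*, which the study names as bound by CHD8 and down-regulated, averaged 163 CPM in controls and 66.0 CPM in mutants. *Tex101* averaged 226 and 60.4 CPM, *Rpl10l* 60.9 and 58.3 CPM, and *Dppa3* 4.97 and 7.75 CPM. The sum is therefore not free of the genotype.

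**Figure D3:**
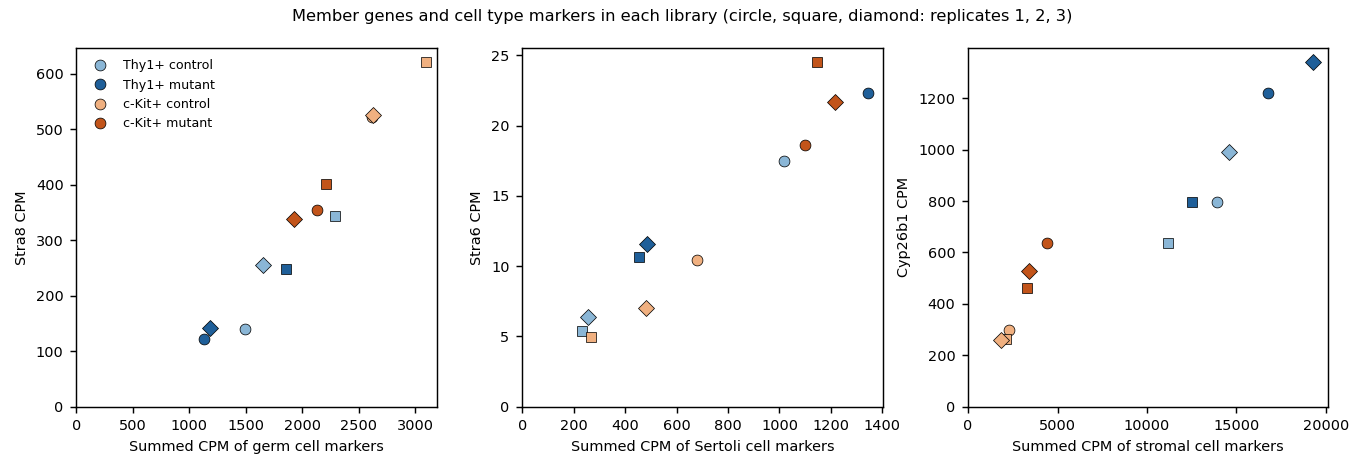
Each point is 1 of the 12 libraries: CPM of *Stra8*, *Stra6* and *Cyp26b1* (vertical axes) against the summed CPM of the germ cell, Sertoli cell and stromal cell markers (horizontal axes). In c-Kit+ cells the mutants lie at lower germ cell sums (1929 to 2214 CPM against 2617 to 3091) and at higher Sertoli cell sums (1098 to 1215 CPM against 268 to 681) than the controls.

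Markers of other cell types moved with the genotype in c-Kit+ cells. All 11 Sertoli cell markers were called higher in c-Kit+ mutants, as were 4 of 7 for Leydig cells, 3 of 6 for peritubular myoid cells, 7 of 8 for stromal cells, 7 of 7 for endothelial cells, 1 of 7 for macrophages and 4 of 5 tested for mast cells. Of the germ cell markers 0 of 10 were called higher and 2 lower, and of the 13 tested markers of undifferentiated spermatogonia 1 was higher and 3 were lower. Over all 17134 genes tested, 14.8% were called higher and 7.41% lower, so the macrophage count was near the share of all genes. The medians were 1.12 for the Sertoli cell list and -0.28 for the germ cell list, beside 0.01 over all genes tested. The Leydig cell sum ran from 643 to 1250 CPM in controls and from 1177 to 2033 CPM in mutants. None of the markers was at 0 throughout a c-Kit+ group. Their part in the values of *Stra6*, *Aldh1a1*, *Cyp26b1*, *Rarg* and *Stra8* was not tested; the percents of marker sums are given for the others but not for *Rarg*.

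In Thy1+ cells 0 of the 10 genes were called between mutant and control by edgeR, DESeq2 or the edgeR exact test, 0 had an unadjusted p under 0.05, and the groups overlapped for all 10, against 17.2% of all genes without overlap. Over the 17416 genes tested, 0% were called higher and 0% lower, with 2151 at an unadjusted p under 0.05. DESeq2 called 52 higher and 326 lower, and the exact test 20 and 274. *Stra8* stood at 139, 344 and 255 CPM in Thy1+ controls and at 121, 249 and 141 CPM in Thy1+ mutants. Its log2 fold change of -0.53 (95% interval -1.36 to 0.31, adjusted p = 0.544) had a wide interval, and with 1 library left out it ran from -0.19 (without control replicate 2) to -0.92 (without mutant replicate 2). *Cyp26b1* was at 796, 636 and 990 CPM in controls and 1220, 795 and 1342 CPM in mutants, a log2 fold change of 0.48 (95% interval -0.02 to 0.98, adjusted p = 0.415). *Aldh1a1* was at 465, 343 and 455 CPM in controls and 592, 416 and 584 CPM in mutants (log2 fold change 0.34, 95% interval -0.04 to 0.73, adjusted p = 0.432). In all 3 of these genes the mutant library was on the same side of the control library of its own number in 3 of 3 pairs. *Rarg* was at 40.5, 49.5 and 54.2 CPM in controls and 32.5, 39.1 and 42.2 CPM in mutants (-0.34, 95% interval -0.69 to 0.02, adjusted p = 0.416), and *Stra6* had a log2 fold change of 0.61 (95% interval -0.47 to 1.70, adjusted p = 0.586), which ran from 0.20 (without mutant replicate 1) to 1.34 (without control replicate 1) with 1 library left out. The same-numbered Thy1+ libraries deviated together, and with the replicate number as a block 3.2% of all genes were called higher and 4.92% lower. In that fit *Stra8* (-0.50, adjusted p = 0.000331) and *Stra6* (0.72, adjusted p = 0.000908) were called. *Cyp26b1* (0.47, adjusted p = 2.13e-05), *Aldh1a1* (0.34, adjusted p = 9.96e-05) and *Rarg* (-0.33, adjusted p = 0.00201) passed the p but not the minimum size. In the fit without the block, leaving out both replicate 1 libraries also gave 0 calls among the 10, as with all libraries, and a log2 fold change of 0.93 for *Stra6* (adjusted p = 0.244). Markers of cell types moved with the genotype in these pairs too. The Sertoli cell sum was higher in the mutant in 3 of 3 pairs (1016 and 1345, 231 and 452, 255 and 487 CPM), and 13 of 14 markers of undifferentiated spermatogonia had an unadjusted p under 0.05 with 0 called (median log2 fold change -0.84, beside 0.02 over all genes). *Stra6* per Sertoli cell sum was at 1.72, 2.32 and 2.50% in Thy1+ controls and 1.66, 2.36 and 2.37% in Thy1+ mutants. *Stra8* per germ cell sum was at 9.32, 15.1 and 15.4% in controls and 10.7, 13.4 and 11.9% in mutants. On both of these scales the groups overlapped and the pairs did not all go one way. The same held for *Aldh1a1* per Leydig cell sum, at 173.8, 142.2 and 103.8% in controls and 198, 128.3 and 112% in mutants. *Cyp26b1* per stromal cell sum was at 5.72, 5.68 and 6.79% in controls and 7.28, 6.35 and 6.96% in mutants. Its groups overlapped too, but in every same-numbered pair the mutant value was the higher.

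**Figure D4:**
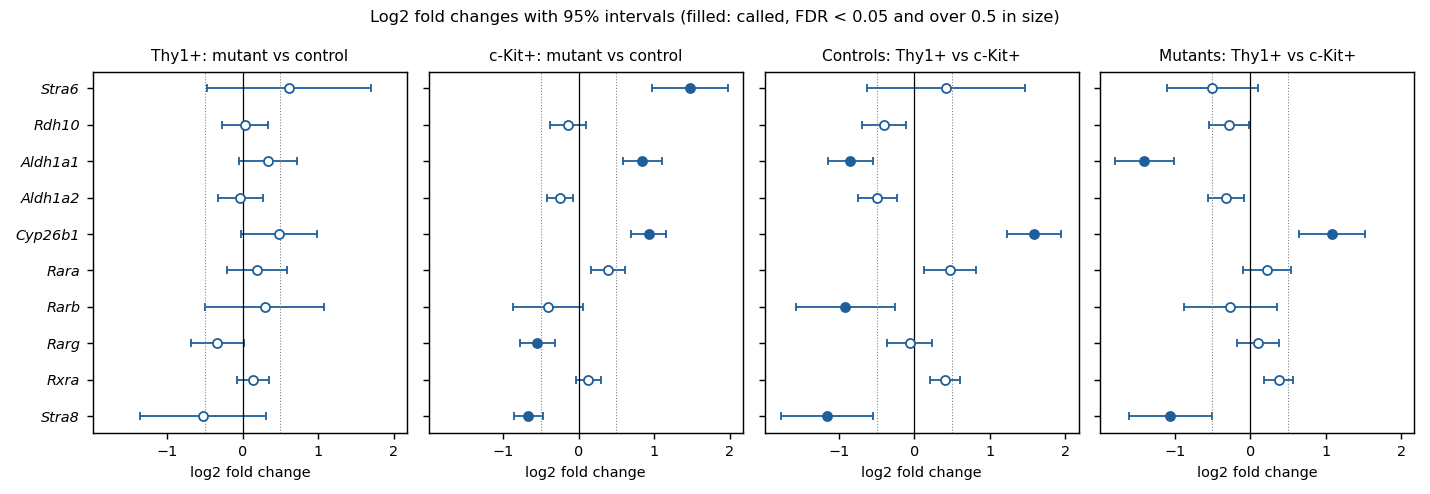
Log2 fold changes of the 10 genes in 4 comparisons (horizontal axes), with 95% intervals from the quasi-likelihood fit; filled circles passed the adjusted p and the minimum size, and dotted lines mark a size of 0.5. Genotype is called for 5 genes in c-Kit+ cells and for 0 in Thy1+ cells, and *Cyp26b1* lies on the Thy1+ side and *Stra8* and *Aldh1a1* on the c-Kit+ side in both genotypes.

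Whether the genotype effect differed between c-Kit+ and Thy1+ cells was tested directly. For 0 of the 10 genes, and for 0% of all 18002 genes tested, was the difference called by edgeR without a replicate block, although 1804 genes had an unadjusted p under 0.05 and DESeq2 called 44 higher and 20 lower. *Aldh1a1* had the lowest adjusted p among the 10, with a log2 difference of 0.57 (95% interval 0.06 to 1.07, adjusted p = 0.453), and was the only member under 0.05 before adjustment. *Stra8* had a difference of -0.08 (95% interval -0.97 to 0.81). The calls in c-Kit+ cells are therefore not shown to be particular to them.

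The second question was how the genes differed between the sorted populations within a genotype. In controls *Cyp26b1* was higher in Thy1+ cells and *Stra8*, *Aldh1a1* and *Rarb* were lower, so that 1 of 10 was called higher and 3 lower, while 20.7% of all genes were called higher and 7.08% lower. *Cyp26b1* had a log2 fold change of 1.58 (SE 0.16, adjusted p = 0.000129), Thy1+ over c-Kit+. *Stra8* (-1.16, SE 0.27, adjusted p = 0.0112) and *Aldh1a1* (-0.85, SE 0.13, adjusted p = 0.00151) were on the c-Kit+ side. *Rarb* (-0.92, SE 0.29, adjusted p = 0.0357) was too, at 1.57, 2.88 and 2.78 CPM in Thy1+ controls and 3.79, 4.35 and 5.66 CPM in c-Kit+ controls, but the call was lost when any of 4 libraries was left out: Thy1+ control replicate 1 (adjusted p = 0.0702) or 3 (0.0534), or c-Kit+ control replicate 2 (0.0835) or 3 (0.122). *Aldh1a2* (-0.49, adjusted p = 0.0112), *Rara* (0.47, adjusted p = 0.038), *Rxra* (0.41, adjusted p = 0.00816) and *Rdh10* (-0.40, adjusted p = 0.0383) passed the p but not the minimum size. All 3 synthesis enzymes among the 10 thus had lower values in Thy1+ than in c-Kit+ controls, and *Cyp26b1* a higher one. This order did not hold for other enzymes of the pathway. *Aldh1a3*, which also makes retinoic acid, averaged 48.5 ± 7.6 CPM in Thy1+ controls and 5.75 ± 0.83 CPM in c-Kit+ controls. The breakdown enzyme *Cyp26a1* averaged 5.41 ± 1.05 and 7.235 ± 0.989 CPM and was not called. *Rarg*, at 48.1 ± 6.93 and 51.1 ± 5.85 CPM, did not differ beyond its spread (95% interval -0.37 to 0.24). In these populations the stromal cell markers were also higher in Thy1+ controls (8 of 8, sums of 11190 to 14570 against 1819 to 2282 CPM) and 5 of 7 Leydig cell markers were lower (sums of 241 to 439 against 643 to 1250 CPM). Their part in the values of *Cyp26b1* and *Aldh1a1* was not tested. *Cyp26b1* per stromal cell sum was lower in Thy1+ controls (5.72, 5.68 and 6.79%) than in c-Kit+ controls (13.0, 12.4 and 14.3%). That is the opposite order to its CPM. *Aldh1a1* per Leydig cell sum was at 173.8, 142.2 and 103.8% in Thy1+ controls and 106.3, 111.5 and 66.56% in c-Kit+ controls. Its groups overlapped, but in every same-numbered pair the Thy1+ value was the higher, also the opposite order to its CPM. *Stra8* per germ cell sum kept the order of its CPM.

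In mutants the same direction was seen for *Cyp26b1* (1.09, SE 0.19, adjusted p = 0.00398), *Aldh1a1* (-1.40, SE 0.17, adjusted p = 0.000556) and *Stra8* (-1.06, SE 0.24, adjusted p = 0.0135), with 1 member called higher and 2 lower against 15.3% and 5.03% of all genes. Per marker sum, *Cyp26b1* and *Aldh1a1* again had the opposite order to their CPM in mutants, and *Stra8* kept its order. The mutant comparison shares no library with that in controls, but the comparisons are not independent. Residuals of same-numbered control and mutant libraries correlated, at 0.267 to 0.492 in Thy1+ cells and 0.101 to 0.124 in c-Kit+ cells. Without Thy1+ mutant replicate 3 the adjusted p of *Stra8* was 0.0639. *Rarb* was not called in mutants (-0.26, 95% interval -0.88 to 0.35, adjusted p = 0.482). *Stra6* had a log2 fold change of -0.50 (adjusted p = 0.183), but of -0.90 (adjusted p = 0.00426) without Thy1+ mutant replicate 1, the library with the high Sertoli cell markers.

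The order of the 4 groups by mean differed from gene to gene. *Stra8* ran from c-Kit+ controls (557 ± 56.3 CPM) through c-Kit+ mutants (365 ± 32.5) and Thy1+ controls (246 ± 103) to Thy1+ mutants (170 ± 68.6), and all neighbours after the first step overlapped. *Aldh1a1* ran the other way within each population, from c-Kit+ mutants (1443 ± 268 CPM) and c-Kit+ controls (773 ± 57.7) to Thy1+ mutants (531 ± 99.8) and Thy1+ controls (421 ± 67.6), where only the last pair overlapped. *Cyp26b1* was highest in Thy1+ mutants (1119 ± 287 CPM) and Thy1+ controls (807 ± 177), which overlapped, then in c-Kit+ mutants (542 ± 87.5) and c-Kit+ controls (274 ± 20.6). The means of *Rarg* were ordered by genotype before population: c-Kit+ controls (51.1 ± 5.85 CPM) and Thy1+ controls (48.1 ± 6.93) were neighbours, as were Thy1+ mutants (37.9 ± 4.97) and c-Kit+ mutants (36.5 ± 2.99). Each neighbouring pair of *Rarg* overlapped. *Stra6* was highest in c-Kit+ mutants (21.6 ± 2.96 CPM), then Thy1+ mutants (14.8 ± 6.47), Thy1+ controls (9.73 ± 6.72) and c-Kit+ controls (7.47 ± 2.77), with an overlap at every step. *Rara* was highest in Thy1+ mutants (75.3 ± 15.5 CPM), *Rxra* in Thy1+ mutants (181 ± 14.4), *Rdh10* in c-Kit+ controls (22.9 ± 2.66) and *Aldh1a2* in c-Kit+ controls (66.0 ± 5.25).

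Of the other genes of the pathway, 45 of 46 listed were in the table. In c-Kit+ cells 39 were tested, of which 9 were called higher and 4 lower in mutants (median log2 fold change 0.07), where 14.8% of all genes were called higher and 7.41% lower. Of the genes of retinoid oxidation and reduction, 6 of 11 tested were higher and 0 lower, with a median of 0.60 beside 0.01 over all genes. They were *Adh4* (1.74, adjusted p = 0.00571, on 0.229 to 1.74 CPM), *Dhrs3* (1.05, adjusted p = 0.000287), which turns retinal back into retinol, *Adh1* (0.99, adjusted p = 0.0066), *Aldh1a3* (0.97, adjusted p = 0.00192), the third enzyme that makes retinoic acid, *Dhrs4* (0.70, adjusted p = 0.00424) and *Rdh5* (0.60, adjusted p = 0.0483). *Dhrs3*, for example, was at 13.8, 14.1 and 17.0 CPM in controls and 34.6, 28.3 and 34.0 CPM in mutants. *Adh5*, the most abundant of this list per length, was not called and stood at 68.7 CPM per kb in controls and 89.7 CPM per kb in mutants. In the same comparison the medians of the somatic cell marker lists ran from 0.70 (macrophages) to 1.12 (endothelial cells). The part of somatic cells in the values of the oxidation and reduction genes was not tested.

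The breakdown enzymes differed in direction. *Cyp26a1* fell by 0.58 on the log2 scale (SE 0.16, adjusted p = 0.0162), from 6.23, 8.21 and 7.26 CPM to 5.31, 5.16 and 4.63 CPM, whereas *Cyp26b1* rose. The level of *Cyp26a1* per length was far lower, at 4.06 CPM per kb in c-Kit+ controls. Of the genes of uptake and storage, 1 of 6 was called: *Rbp4*, a carrier of retinol, fell by 0.77 (SE 0.10, adjusted p = 0.000497). None of the 3 cytoplasmic binding proteins was called, and *Crabp1*, the most abundant, stood at 229 CPM per kb in controls and 174 CPM per kb in mutants. Of the receptors and cofactors 1 of 6 was called, the coactivator *Ncoa3* (-0.51, adjusted p = 0.00163).

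Of the genes known to respond to retinoic acid, 3 of 11 were called higher and 1 lower in c-Kit+ mutants, where the shares of all genes were 14.8% and 7.41%. *Rec8*, the meiotic cohesin known to be induced by retinoic acid in germ cells, stood at 40.7, 51.0 and 51.1 CPM in controls and 24.5, 24.7 and 21.3 CPM in mutants and fell by 1.08 (SE 0.11, adjusted p = 0.000209). It moved in the same direction as *Stra8*. *Tgm2* (1.27, adjusted p = 0.000192), *Rarres1* (1.69, adjusted p = 0.00282) and *Plaat3* (1.03, adjusted p = 0.00236), known as retinoic acid targets in other tissues, rose. Somatic cell markers rose in these libraries too, and their part in these values was not tested. *Kit*, the most abundant of the list per length, had a log2 fold change of 0.10 (adjusted p = 0.288), at 656, 716 and 626 CPM in controls and 772, 782 and 680 CPM in mutants, while *Stra8* fell in the same libraries. Because these cells were sorted with c-Kit beads, their *Kit* level is not independent of the sort. In Thy1+ cells 0 of 40 tested genes of the pathway were called by edgeR, with 5 at an unadjusted p under 0.05. With the replicate block 5 of the pathway genes were called, beside 3.2% of all genes called higher and 4.92% lower. They were *Rec8* (-1.14, adjusted p = 1.89e-06), *Cyp26a1* (-0.92), *Rbp4* (-0.50), *Rxrg* (-1.33) and *Fabp5* (0.97), the last uncertain because its reads may be shared with near-identical copies. Between populations 10 of 41 were higher and 9 lower in Thy1+ controls (20.7% and 7.08% of all genes), and 7 of 39 were higher and 7 lower in Thy1+ mutants (15.3% and 5.03% of all genes).

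**Figure D5:**
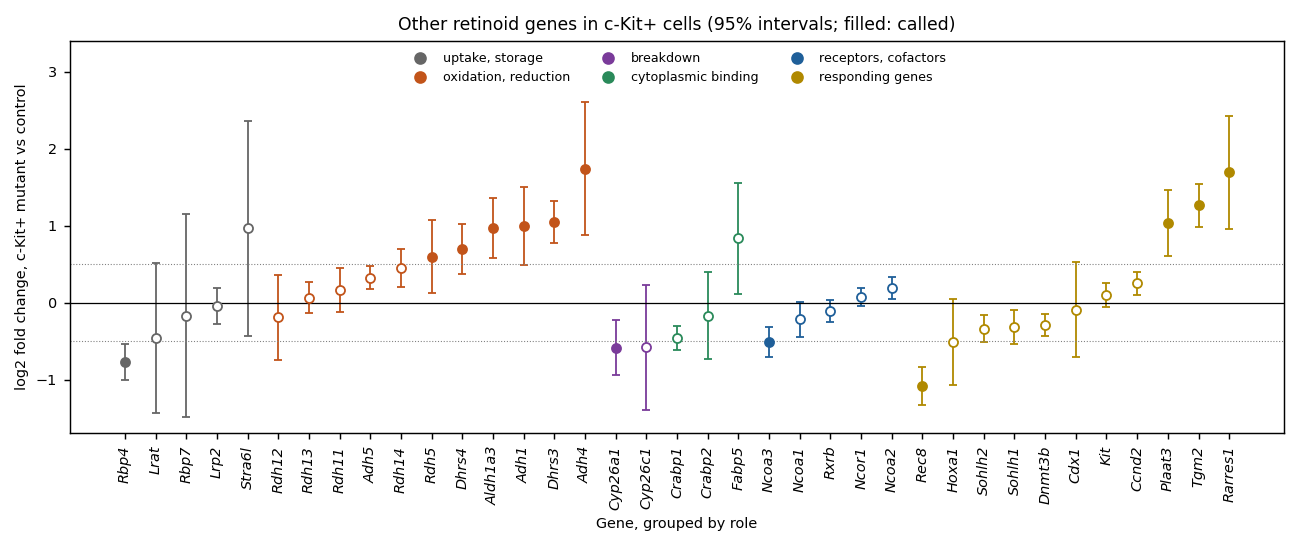
Log2 fold changes (mutant over control in c-Kit+ cells, vertical axis) with 95% intervals for tested genes of the pathway other than the 10 members, coloured by role; filled circles were called. In the oxidation and reduction group 6 of 11 genes are filled, all above zero.

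The genes whose levels were most like those of *Stra8* were sought over the 12 libraries among 11171 genes (Pearson r of log2 CPM, given as a description, since the libraries share groups, markers and depth). They were *Vps13a* (r = 0.996), *Fanca* (0.995), *Usp49* (0.995), *BC055324* (0.993) and *Cenpf* (0.993). For *Rarg* they were *Fbf1* (0.955), *Cep170* (0.946) and *Sun1* (0.944), and for *Aldh1a2* they were *Tent5d* (0.970), *Grpel1* (0.947) and *Cyb561d1* (0.946). Among the 10 genes themselves, *Stra8* ran with *Rarb* (0.813) and against *Cyp26b1* (-0.914) and *Rara* (-0.881). *Cyp26b1* ran with *Rxra* (0.922), and *Rarg* against *Stra6* (-0.886).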

How the data were processed

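RNA-seq counts of 12 libraries were analysed (4 groups of 3). Per the labels and the study's methods, the authors used Trimmomatic 0.39 for trimming of the paired reads, HISAT2 2.1.0 for alignment (mm10) and featureCounts for counts per gene. The deposited values are raw counts. Between 65.6% and 69.5% of values from 1 to 19 were even, a pattern left when the 2 mates of a fragment each add 1, and no strand setting is given. Symbols were matched for 25275 genes.

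Counts were tested with edgeR 4.0.16 (quasi-likelihood F test, TMM normalisation, filterByExpr, R 4.3.3), within the groups compared, with Benjamini-Hochberg adjustment over all genes tested. Called means an adjusted p under 0.05 and a log2 fold change over 0.5 in size (for the difference of genotype effects, the p alone). CPM were TMM-scaled over all 12 libraries, and levels between genes were divided by exon length. The fits were tested on simulated data. DESeq2 1.42.0 and other settings were alternatives. The genes, gene lists and markers were chosen with earlier results of these data known. Named genes were the 10 members, pathway genes called between genotypes, the most abundant gene of each pathway list (some are not reported here), and the genes most like *Stra8*, *Rarg* and *Aldh1a2*; those called only with the block were named after their values were seen. The percents of marker sums and the fits without replicate 1 were also chosen after seeing the data. Residuals of same-numbered libraries correlated at 0.267 to 0.492 (Thy1+ genotypes), 0.101 to 0.124 (c-Kit+) and 0.134 to 0.298 (controls), over 0.1 in each pair, so the numbers pair the libraries there by the data alone. They did not in the mutants (0.021 to 0.203). The ChIP-seq samples were not analysed here.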

Additional observations from a re-analysis of the deposited data

How the results depend on the processing

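Each count of called genes was recomputed under 8 other fits, without the minimum size, and by leaving out each library in turn. For the difference of genotype effects, the exact test, the fit of all 12 libraries and the change of minimum size were not among these. With the replicate block, 2 members and 5 other pathway genes were called between genotypes in Thy1+ cells (0 and 0 without it). Of all genes that fit called 3.2% higher and 4.92% lower. The block also gave 1 call (*Aldh1a1*, adjusted p = 0.028) for the difference of genotype effects, where the numbers were not shown to pair the libraries. It changed no other call of a member. The exact test, DESeq2 and the fit of all 12 libraries each called 1 other pathway gene in Thy1+ cells. In the fit of all 12 libraries 3 members were called in c-Kit+ cells instead of 5, since *Stra8* and *Rarg* (-0.49) were lost. With no minimum size, 22 other pathway genes were called in c-Kit+ cells (13 with it), 8 members between populations in controls (4) and 5 in mutants (3). Leaving out 1 library gave 7 to 18 other pathway genes between populations in mutants (14 with all), 4 to 5 members between genotypes in c-Kit+ cells 3 to 6 between populations in controls (4 with all) and 2 to 4 in mutants (3 with all). Without both replicate 1 libraries, 5 members were called between populations in controls and 4 in mutants. *Aldh1a2* was called between populations in controls in 6 of the 8 other fits, with -0.52 to -0.58.

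Values near zero changed sign. In Thy1+ cells *Rdh10* (0.03) was -0.00138 by library size alone, -0.0307 without both replicate 1 libraries and -0.0469 to 0.0701 when 1 was left out, and *Aldh1a2* (-0.03) was -0.128 to 0.0296 when 1 was left out. Between populations in controls *Rarg* (-0.06) was -0.202 to 0.023 and *Stra6* (0.42) was -0.346 to 0.705 when 1 was left out (both signs turned without Thy1+ replicate 1), and *Stra6* was -0.0288 without both replicate 1 libraries. Their cause was not tested. Scaling by library size alone put 63.7% of the genes called between populations in controls on the Thy1+ side (74.5% with TMM) and 63.3% in mutants (75.3%). Over all genes, the counts called in Thy1+ cells ran from 0 to 558 higher and 0 to 856 lower over the alternatives, and for the difference of effects from 0 to 422 and 0 to 24. The counts lower in Thy1+ cells ran from 625 to 2002 in controls (1229 as reported) and from 338 to 1788 in mutants (872). Genes of few counts, such as *Rarb* and *Adh4*, have wide intervals at this depth.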
